A study of Mus musculus with 54 samples.

Results

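The genes described here are the 34 members of a list on the use of glucose in macrophages. They code for the enzymes of glycolysis down to lactate (20 genes), for the pentose phosphate pathway (7 genes) and for the pyruvate dehydrogenase complex with 3 of its kinases (7 genes). The list was drawn up by gene symbol, and all 34 were found among the 39179 Ensembl identifiers of the deposited count tables by means of the GENCODE M21 annotation of GRCm38. Every member passed the filter on low counts in each experiment.

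RNA sequencing had been carried out on thioglycolate-elicited peritoneal macrophages of C57BL/6 mice aged 8 to 20 weeks, collected 4 days after the injection and kept by adherence, with no cell sorting. M0 macrophages received no polarizing stimulus, M1-like macrophages received LPS (at 100 ng/ml) together with IFN-gamma (at 50 ng/ml) for 24 h, and M2-like macrophages with 10 ng/ml IL-4 for 24 h. The polarization experiment (SE50, single-end reads of 50 nucleotides) held these 3 conditions from 3 mice. The reprogramming experiment (PE150, paired-end reads of 150 nucleotides) held 12 conditions with 3 replicates each. These were the same 3 states left untransfected, the 3 states given the transfection reagent alone (mock), and M2-like macrophages transfected with a negative siRNA pool, with pools against E2f1, Myc, Pparg or Stat6, or with these 4 pools combined. RNA of transfected cells was taken 48 h after transfection, in medium without IL-4, whereas the methods place the sequencing of macrophages without transfection at 24 h of polarization, with no statement for the PE150 set on its own. All samples thus shared the strain, the thioglycolate and the adherence step. For SE50 the labels number the mice, whereas for PE150 they give replicate numbers only, so that p-values measure the spread between these samples.

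Glycolysis converts glucose to pyruvate, and lactate dehydrogenase reduces pyruvate to lactate. The pentose phosphate pathway branches off at glucose 6-phosphate, with an oxidative branch that yields NADPH and a non-oxidative branch that rearranges sugars. The pyruvate dehydrogenase complex feeds pyruvate into the citric acid cycle and is switched off when its kinases phosphorylate it. Macrophages stimulated by LPS and IFN-gamma are known for fast glycolysis and lactate release, and hypoxia-inducible factor and Myc are known activators of glycolytic genes.

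Since Myc was a target of the siRNA pools, the promoters of the members were searched for the E-box CACGTG and for ACGTG, the core of sites of the hypoxia-inducible factor, on both strands. CACGTG holds ACGTG on both strands. Promoter sequences came from RefSeq (build GRCm38.p6), with the 250 bases before each start site as the window. All 34 members had such a window, some with several start sites. ACGTG stood in 13 of 48 windows of members (27.1%) and in 16.6% of all 32851 windows, and CACGTG in 3 of the 48 (6.25%) and in 6.02% of all. Windows of the same gene can overlap and hold the same match, as for Aldoa. Counted by gene, ACGTG stood in 11 of 34 members and 18.5% of 27025 genes, and CACGTG in 3 of 34 and 6.86%. The window is shown for Ldha (chr7:46845554-46845803, plus strand), Pfkm (chr15:98092339-98092588, plus strand) and Pdk2 (chr11:95041372-95041621, minus strand), the members with CACGTG, and for Hk2 (chr6:82774455-82774704, minus strand) and Pgk1 (chrX:106186850-106187099, plus strand), which hold ACGTG and rose in M1-like macrophages in each experiment. Each is written 5′ to 3′ on the strand of the gene, capitals mark the matches on either strand, and none of these bases lie in an annotated exon. Other members, such as Hk3, Pgam1 and Pdk3, also hold ACGTG and rose in M1-like macrophages in each experiment, and their windows are not shown. A match is a description of the letters and no evidence of binding.
Ldha: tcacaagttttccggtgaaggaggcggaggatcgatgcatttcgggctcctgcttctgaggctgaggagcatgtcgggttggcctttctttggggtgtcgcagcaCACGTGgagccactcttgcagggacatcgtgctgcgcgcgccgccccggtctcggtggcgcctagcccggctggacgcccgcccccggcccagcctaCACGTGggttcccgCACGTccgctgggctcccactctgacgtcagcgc
Pfkm: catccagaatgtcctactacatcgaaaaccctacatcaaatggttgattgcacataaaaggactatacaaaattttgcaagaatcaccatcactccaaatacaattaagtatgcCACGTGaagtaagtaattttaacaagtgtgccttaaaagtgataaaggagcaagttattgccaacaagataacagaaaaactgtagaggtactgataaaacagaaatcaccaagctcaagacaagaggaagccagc
Pdk2: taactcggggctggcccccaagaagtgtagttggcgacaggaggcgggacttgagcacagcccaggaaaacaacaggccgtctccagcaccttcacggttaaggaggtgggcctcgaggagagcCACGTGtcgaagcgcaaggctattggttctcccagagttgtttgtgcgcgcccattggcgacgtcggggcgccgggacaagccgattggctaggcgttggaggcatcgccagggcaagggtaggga
Hk2: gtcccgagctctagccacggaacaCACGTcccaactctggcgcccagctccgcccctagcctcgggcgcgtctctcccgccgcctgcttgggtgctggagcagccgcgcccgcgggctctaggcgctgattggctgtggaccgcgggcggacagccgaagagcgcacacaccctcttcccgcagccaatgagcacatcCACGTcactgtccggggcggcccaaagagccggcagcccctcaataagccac
Pgk1: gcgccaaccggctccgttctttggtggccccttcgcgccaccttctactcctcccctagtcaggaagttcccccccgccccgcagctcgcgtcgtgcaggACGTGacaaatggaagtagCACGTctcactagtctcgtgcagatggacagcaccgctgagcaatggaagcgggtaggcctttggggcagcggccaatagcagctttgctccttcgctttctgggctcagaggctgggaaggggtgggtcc

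The SE50 libraries held 19714994 to 29880494 counted reads, and the 2 technical libraries of each mouse and condition were summed to 39577911 to 59443987 reads. The PE150 libraries held 13421854 to 19704195. Nos2, the inducible nitric oxide synthase that marks M1-like macrophages, was at 12352 ± 1506 CPM (counts scaled to a common library size, mean ± SD, n = 3) in SE50 M1-like against 1.04 ± 0.284 CPM in M2-like macrophages, and at 706 ± 102 CPM in untransfected and 502 ± 72 CPM in mock PE150 M1-like macrophages. Chil3, a marker of M2-like macrophages, reached 5927 ± 752 CPM in SE50 M2-like and 947 ± 66.7 CPM in untransfected PE150 M2-like macrophages. The 7 macrophage markers moved with the conditions. Their sum was 10281 to 11296 CPM in M1-like against 12706 to 13039 CPM in M2-like samples of SE50, 6642 to 7786 against 15934 to 18319.8 CPM in untransfected and 6211 to 7203 against 14738 to 15998 CPM in mock samples. The sum of 6 mesothelial and fibroblast markers was lower in M1-like samples as well, with 22.2 to 58.6 CPM in untransfected M1-like against 90.3 to 307 CPM in untransfected M2-like PE150 samples, 17.1 to 30.3 against 139 to 232 CPM in mock samples, and 4.4 to 6.47 against 11.2 to 13.3 CPM in SE50. The 4 eosinophil markers moved likewise, with 0.27 to 1.70 CPM in M1-like samples of both experiments and 9.47 to 46.1 CPM elsewhere. The 4 B cell markers summed to 0.672 to 1.47 CPM in untransfected M1-like against 6.8 to 13.8 CPM in M2-like PE150 samples and to 0.979 to 2.36 against 6.55 to 11.6 CPM in mock samples, whereas the SE50 ranges of 4.92 to 5.24 and 4.26 to 13.8 CPM overlapped. Mitochondrial genes took 0.985% to 1.07% of the reads in SE50 M1-like and 1.74% to 2.20% in M2-like samples, and 1.25% to 1.61% against 1.71% to 1.85% in untransfected PE150 samples, and overlapped in mock samples. The part of other cells and of RNA quality in the results was not tested, and in such bulk samples fewer cells of a type and less RNA per cell cannot be told apart.

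Summed over the pathway, the 20 glycolysis members reached 21289.9, 19278 and 18652 CPM in the 3 SE50 M1-like samples. In SE50 M2-like samples the sums were 3748, 4199 and 4446 CPM, and in M0 they were 3957, 3812 and 3836 CPM. The SE50 M1-like mean was 4.78 times that of M2-like macrophages, without any overlap. In PE150 the untransfected M1-like samples held 6117, 6148 and 6826 CPM against 4403, 4446 and 4517 CPM in M2-like samples, 1.43 times as much, and the mock ratio was 1.32. For the 7 pentose phosphate members the sum went the opposite way between the experiments, though gene by gene 4 of them were lower in SE50 M1-like macrophages. Their sum was 2041 ± 45.8 CPM (mean ± SD, n = 3) in SE50 M1-like against 1682 ± 171 CPM in M2-like macrophages, but 1017 ± 87.6 against 1731 ± 167 CPM in untransfected and 1033 ± 57.7 against 1606 ± 117 CPM in mock PE150 macrophages. The pyruvate dehydrogenase members summed to 403 ± 23.1 against 292 ± 18.9 CPM in SE50 and to 385 ± 16.1 against 349 ± 6.58 CPM in untransfected PE150 macrophages. This sum joins the subunits of the complex with the kinases that switch it off. In SE50 only the kinases Pdk1 and Pdk3 were called higher, whereas the subunits Pdha1 and Dlat and the kinase Pdk2 were called lower. A sum is led by its most abundant members, and the 2 experiments were scaled separately, so that sums are compared within each of them.

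**Figure D1:**
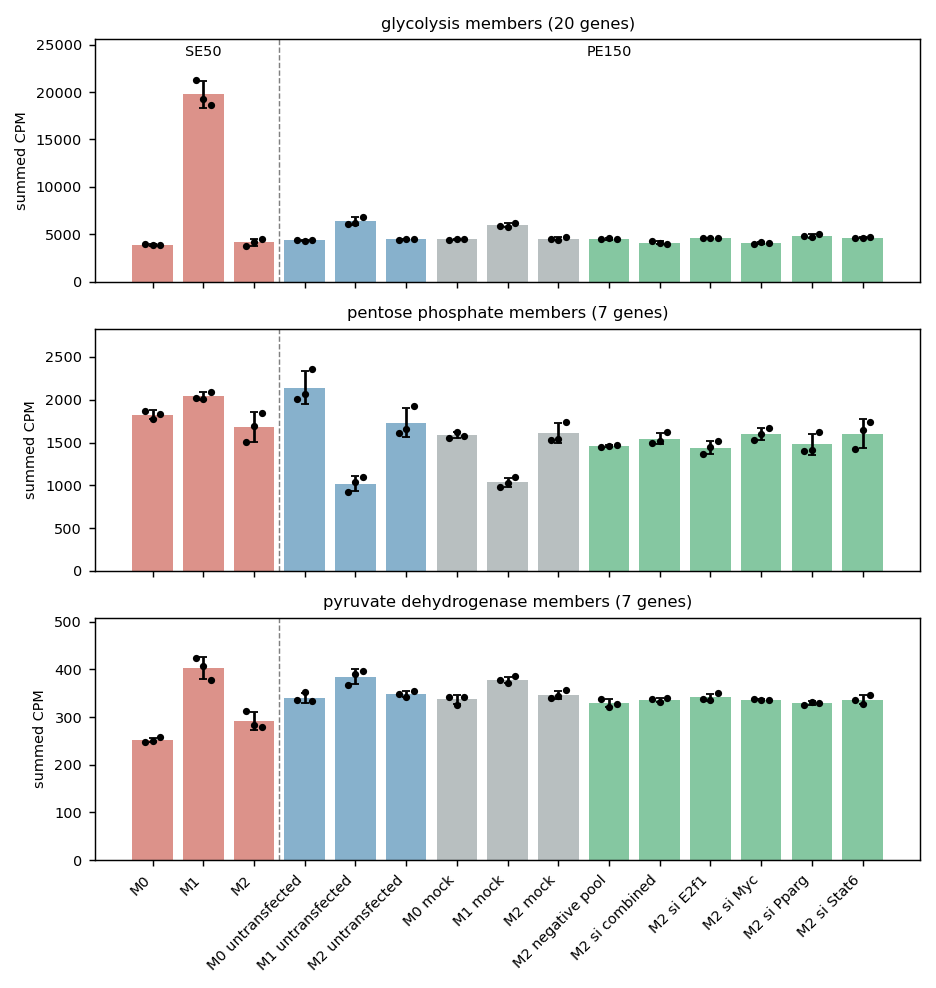
Summed CPM of the glycolysis, pentose phosphate and pyruvate dehydrogenase members (vertical axes) in the 15 conditions, with bars for the mean, whiskers for the SD and points for the 3 replicates. The glycolysis sum of SE50 M1-like macrophages lies 4.78 times above that of M2-like macrophages, and the pentose phosphate sum of M1-like macrophages lies below that of M2-like macrophages in PE150 only.

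Comparing M1-like with M2-like macrophages gene by gene, 19 of 34 members were higher and 10 lower in SE50 M1-like macrophages, with the threshold at an adjusted p-value of 0.05 (edgeR's quasi-likelihood test, two-sided, adjusted over all genes tested). Of all 16110 genes tested, 34.6% were higher and 38.1% lower. In untransfected PE150 macrophages, 20 members were higher and 10 lower, against 31.3% and 30.2% of 14172 genes. In mock macrophages, 17 were higher and 8 lower, against 30.9% and 29.8%. The share of higher members thus lay above that of all genes in each comparison and the share of lower members near or below it. The median log2 fold change of the members was 1.18 in SE50, where that of all genes was -0.06, and 0.25 in untransfected and 0.19 in mock PE150 macrophages, where that of all genes was 0.03. Of the 20 glycolysis members, 15, 15 and 13 were higher and 3, 4 and 3 lower in SE50, untransfected and mock macrophages. Of the 7 pentose phosphate members, 2, 1 and 1 were higher and 4, 5 and 4 lower, and of the 7 pyruvate dehydrogenase members 2, 4 and 3 were higher and 3, 1 and 1 lower.

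Put together, 13 members were higher in M1-like macrophages in all 3 comparisons, namely Hk1, Hk2, Hk3, Pfkl, Pfkp, Tpi1, Gapdh, Pgk1, Pgam1, Eno1, Ldha, Pdk1 and Pdk3. Eno2, Tkt, Taldo1 and Pdk2 were lower in all 3. Aldoa, Aldoc, G6pdx and Pgd were higher in SE50 and lower in both PE150 comparisons. Bpgm and Pdha1 were lower in SE50 and higher in both PE150 comparisons, and Dlat was lower in SE50 and higher in untransfected PE150 macrophages. Pfkm, Pdhb and Dld were called in none of the 3. Both PE150 comparisons come from the same experiment, and the share of all genes with such joint or opposite calls was not determined. The log2 fold change was larger in size in SE50 than in untransfected PE150 macrophages for 27 of 34 members and larger than in mock macrophages for 29. Over all genes its median size was larger in SE50 too, at 0.58 against 0.46 in untransfected and 0.43 in mock macrophages. For the members these medians were 1.48, 0.62 and 0.55.

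**Figure D2:**
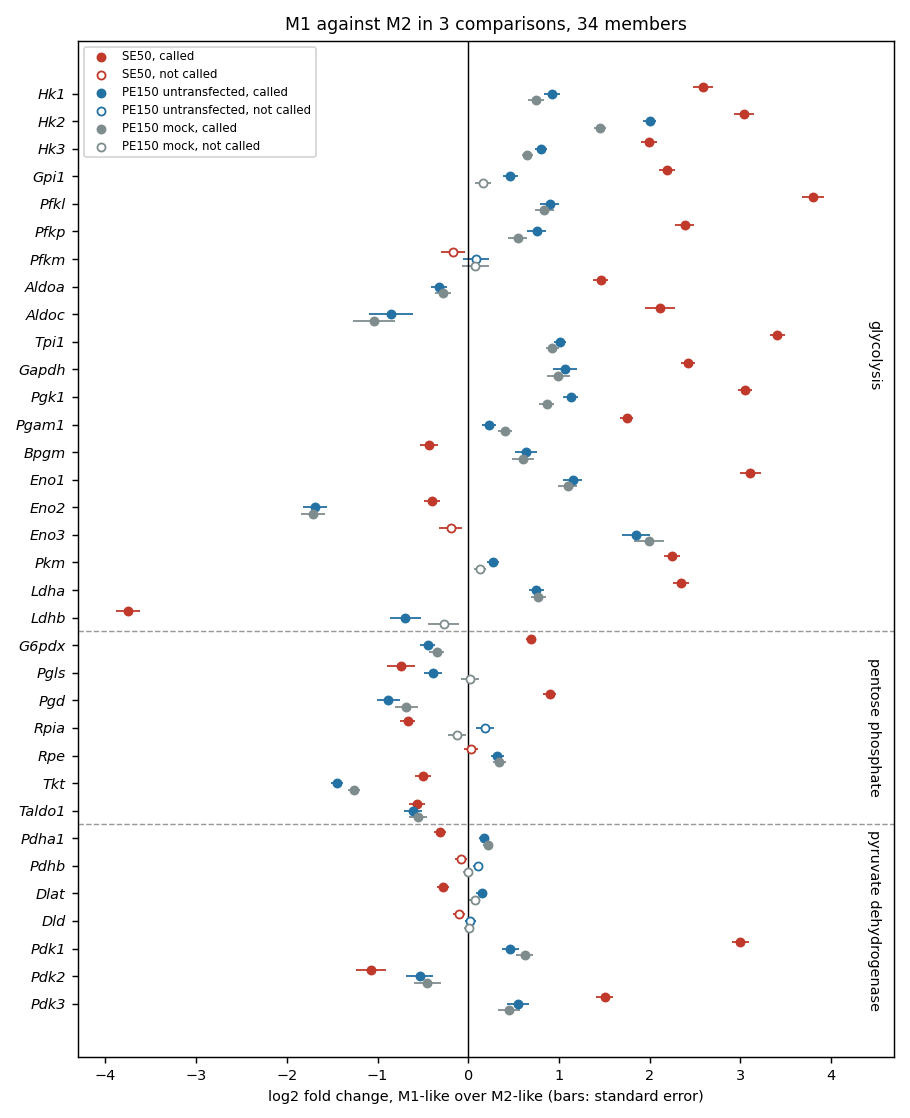
Log2 fold change of M1-like over M2-like macrophages (horizontal axis) for each member (vertical axis) in SE50 (red), untransfected PE150 (blue) and mock PE150 (grey), with bars for the standard error and filled points where the adjusted p-value was under 0.05. Most glycolysis members lie to the right of 0 in all 3, with SE50 farthest out for 27 of 34 members against untransfected macrophages, whereas Aldoa, Aldoc, G6pdx and Pgd change sides between SE50 and PE150.

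Some members share sequence with other genes, and how reads with several matches were counted is not given in the sources used here. Of the stretches of 50 bases in the transcripts of Pgk1, 53.9% were also found in other genes, all 5 of them pseudogenes. The share was 36.2% for Pgam1, 26.0% for Eno1, 25.8% for Pkm, 25.1% for Gapdh (with 213 pseudogenes) and 20.99% for Ldhb. At 150 bases it was 49.4% for Pgk1, 32.2% for Pgam1, 18.1% for Gapdh, 16.5% for Eno1 and 7.22% for Pkm. The levels of these genes are therefore uncertain, and Gapdh, at 6.22, 7.41 and 6.61 CPM in untransfected M2-like PE150 samples, was low for a gene known to be abundant in most cells. Among the 22 members with under 10% of shared 50-base stretches, 12, 12 and 11 were higher and 7, 7 and 7 lower in SE50, untransfected and mock M1-like macrophages.

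Hexokinases phosphorylate glucose at the entry of the pathway, and all 3 rose in M1-like macrophages in each comparison. Positions given with a gene are those of GENCODE M21 on GRCm38. Hk2, the inducible hexokinase (ENSMUSG00000000628, chr6:82725025-82774454), stood at 1023, 863 and 719 CPM in the SE50 M1-like samples. In M2-like samples it stood at 103, 111 and 103 CPM (log2 fold change 3.04, standard error 0.11, adjusted p = 1.64e-10). The untransfected PE150 samples held 331, 303 and 284 CPM in M1-like against 78.7, 76.6 and 73.9 CPM in M2-like macrophages (log2 fold change 2.0, standard error 0.07, adjusted p = 9.47e-22). None of these groups overlapped. The mock samples held 286, 277 and 245 CPM in M1-like against 98.9, 94.5 and 101 CPM in M2-like macrophages (log2 fold change 1.45, standard error 0.07, adjusted p = 2.16e-18). Hk3, the most abundant of the hexokinases here, changed by 2.0 ± 0.09 on the log2 scale (± standard error) in SE50, by 0.80 ± 0.06 in untransfected and by 0.65 ± 0.06 in mock macrophages, and Hk1 by 2.58 ± 0.11, 0.93 ± 0.09 and 0.75 ± 0.09.

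Gpi1 converts glucose 6-phosphate to fructose 6-phosphate, and the phosphofructokinases Pfkl, Pfkp and Pfkm commit it to glycolysis. Pfkl, the liver type (ENSMUSG00000020277, chr10:77986947-78010083), had the largest log2 fold change of all members in SE50. Its levels were 656, 595 and 567 CPM in M1-like against 34.4, 47.2 and 48.3 CPM in M2-like samples (log2 fold change 3.81, standard error 0.12, adjusted p = 5.07e-11). In untransfected PE150 macrophages they were 127, 189 and 187 CPM against 84.4, 88.4 and 97.3 CPM (log2 fold change 0.90, standard error 0.10, adjusted p = 7.05e-09). In mock macrophages they were 138, 166 and 163 CPM against 82.2, 83.5 and 95.6 CPM (log2 fold change 0.84, standard error 0.10, adjusted p = 3.29e-08). The M1-like samples thus lay above the M2-like samples in each comparison, by far more in SE50. Pfkp, the platelet type, rose by 2.39 ± 0.11, 0.76 ± 0.10 and 0.55 ± 0.10 on the log2 scale in the same order. Pfkm, the muscle type, was low, at 2.71 to 12.3 CPM in M1-like samples, and was not called. Gpi1 stood at 871, 758 and 694 CPM in SE50 M1-like against 156, 171 and 181 CPM in M2-like samples (log2 fold change 2.19, standard error 0.09, adjusted p = 4.28e-10). In mock macrophages it stood at 212, 192 and 222 CPM against 167, 187 and 203 CPM, where the groups overlapped (log2 fold change 0.17, standard error 0.09, adjusted p = 0.0966).

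Aldolases split fructose 1,6-bisphosphate, and Tpi1 interconverts the products. Both aldolases changed direction between the experiments. Aldoa, the main form, was at 2206, 2192 and 2340.5 CPM in SE50 M1-like samples and at 717, 837 and 896 CPM in M2-like samples (log2 fold change 1.46, standard error 0.08, adjusted p = 8.24e-09). In untransfected PE150 samples it was at 652, 506 and 658 CPM in M1-like against 761, 716 and 789.9 CPM in M2-like macrophages (log2 fold change -0.32, standard error 0.09, adjusted p = 0.00164). In mock samples it was at 595, 524 and 607 against 739.6, 662 and 689 CPM (log2 fold change -0.28, standard error 0.09, adjusted p = 0.00579), and without M1-like mock replicate 2 the adjusted p-value was 0.051. The SE50 groups were far apart, whereas the PE150 groups differed by a small margin. Aldoc, a minor form (ENSMUSG00000017390, chr11:78322968-78327781), was at 5.62, 4.75 and 4.04 CPM in SE50 M1-like against 0.926, 1.01 and 1.36 CPM in M2-like samples (log2 fold change 2.11, standard error 0.17, adjusted p = 2.51e-07). The untransfected PE150 samples held 6.41, 4.42 and 6.81 CPM in M1-like against 10.4, 8.64 and 12.9 CPM in M2-like macrophages (log2 fold change -0.85, standard error 0.24, adjusted p = 0.00275). The mock samples held 8.26, 3.78 and 6.5 against 11.8, 11.4 and 14.8 CPM (log2 fold change -1.04, standard error 0.23, adjusted p = 0.000262). These are low levels with a wide spread between replicates. Tpi1 (ENSMUSG00000023456, chr6:124810586-124814296) rose in each comparison, from 150.2, 158 and 162 CPM in SE50 M2-like samples to 1833, 1649 and 1509 CPM in M1-like samples (log2 fold change 3.41, standard error 0.08, adjusted p = 4.3e-12). Its PE150 levels were 305, 309.6 and 325 CPM in untransfected M2-like and 569, 608 and 717 CPM in M1-like samples (log2 fold change 1.01, standard error 0.07, adjusted p = 3.63e-14). The mock samples held 302, 305 and 292 CPM in M2-like and 554, 549 and 606 CPM in M1-like macrophages (log2 fold change 0.93, standard error 0.07, adjusted p = 3.44e-13).

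Gapdh, Pgk1 and Pgam1 carry the 3-carbon sugars towards pyruvate, Pgk1 with a gain of ATP. Pgk1 (ENSMUSG00000062070, chrX:106187100-106203699) stood at 779, 692 and 653 CPM in SE50 M1-like samples against 88.9, 82.3 and 85.3 CPM in M2-like samples (log2 fold change 3.05, standard error 0.08, adjusted p = 8.26e-12). It stood at 37.4, 38.1 and 36.3 CPM against 15.7, 16.4 and 19 CPM in untransfected (log2 fold change 1.13, standard error 0.08, adjusted p = 2.37e-13) and at 35, 30.3 and 36.4 CPM against 18.1, 20.4 and 17.4 CPM in mock PE150 samples (log2 fold change 0.86, standard error 0.08, adjusted p = 1.23e-10). The groups did not overlap in any of the 3, and on the separately scaled CPM its PE150 levels were below its SE50 levels in every state. Gapdh rose by 2.43 ± 0.08, 1.07 ± 0.13 and 0.99 ± 0.13 on the log2 scale in SE50, untransfected and mock macrophages, and Pgam1 by 1.75 ± 0.07, 0.23 ± 0.08 and 0.40 ± 0.08. Bpgm makes 2,3-bisphosphoglycerate and went the other way in SE50. It was at 7.4, 7.54 and 6.24 CPM in SE50 M1-like against 9.59, 9.9 and 9.09 CPM in M2-like samples (log2 fold change -0.43, standard error 0.10, adjusted p = 0.00144). The untransfected PE150 values were 12.6, 15.6 and 14.6 against 8.37, 9.02 and 10.1 CPM (log2 fold change 0.63, standard error 0.12, adjusted p = 4.34e-05) and the mock values 14.9, 12 and 15.7 against 9.67, 9.75 and 8.5 CPM (log2 fold change 0.60, standard error 0.12, adjusted p = 7.67e-05). Bpgm shared no 50-base stretch with another gene.

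Enolases make phosphoenolpyruvate, and the 3 forms behaved differently. Eno1, the form found in most tissues (ENSMUSG00000063524, chr4:150236721-150248879), was at 1505, 1271 and 1183 CPM in SE50 M1-like against 130.5, 156 and 172 CPM in M2-like samples (log2 fold change 3.11, standard error 0.11, adjusted p = 1.62e-10). On the separately scaled CPM its PE150 levels were much lower, with 43, 47.5 and 47.6 against 19.5, 18 and 24.6 CPM in untransfected (log2 fold change 1.15, standard error 0.10, adjusted p = 2.62e-11) and 42.4, 40.8 and 47 against 20.5, 21.8 and 18.5 CPM in mock samples (log2 fold change 1.10, standard error 0.10, adjusted p = 9.08e-11). Eno1 thus rose in M1-like macrophages at each level. Eno2, known from neurons (ENSMUSG00000004267, chr6:124760053-124769673), was lower in M1-like macrophages in all 3 comparisons. The SE50 values were 25.2, 29.6 and 27.7 against 33.1, 39.2 and 36.4 CPM (log2 fold change -0.40, standard error 0.09, adjusted p = 0.00128). The untransfected PE150 values were 29.5, 19.4 and 25.4 against 86.1, 76.9 and 77 CPM (log2 fold change -1.69, standard error 0.13, adjusted p = 1.09e-12), and the mock values 27.8, 18.5 and 27.2 against 84, 76.3 and 79.3 CPM (log2 fold change -1.71, standard error 0.13, adjusted p = 8.31e-13). Eno2 had the largest negative log2 fold change of all members in both PE150 comparisons. The sum of mesothelial and fibroblast markers was lower in M1-like macrophages of SE50 and PE150 alike, and its part in the Eno2 levels was not tested. Eno3, known from muscle (ENSMUSG00000060600, chr11:70657202-70662513), was not called in SE50, at 3.67, 4.67 and 4.29 against 4.72, 4.61 and 5.1 CPM (log2 fold change -0.19, standard error 0.13, adjusted p = 0.198). Among untransfected PE150 samples it was at 18.5, 14.8 and 15.4 against 3.51, 4.71 and 5.22 CPM (log2 fold change 1.85, standard error 0.16, adjusted p = 6.97e-12), and in mock samples at 17.3, 13 and 14.1 against 3.65, 2.8 and 4.67 CPM (log2 fold change 1.99, standard error 0.16, adjusted p = 2.69e-12). All PE150 M1-like samples lay above all M2-like samples for Eno3.

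**Figure D3:**
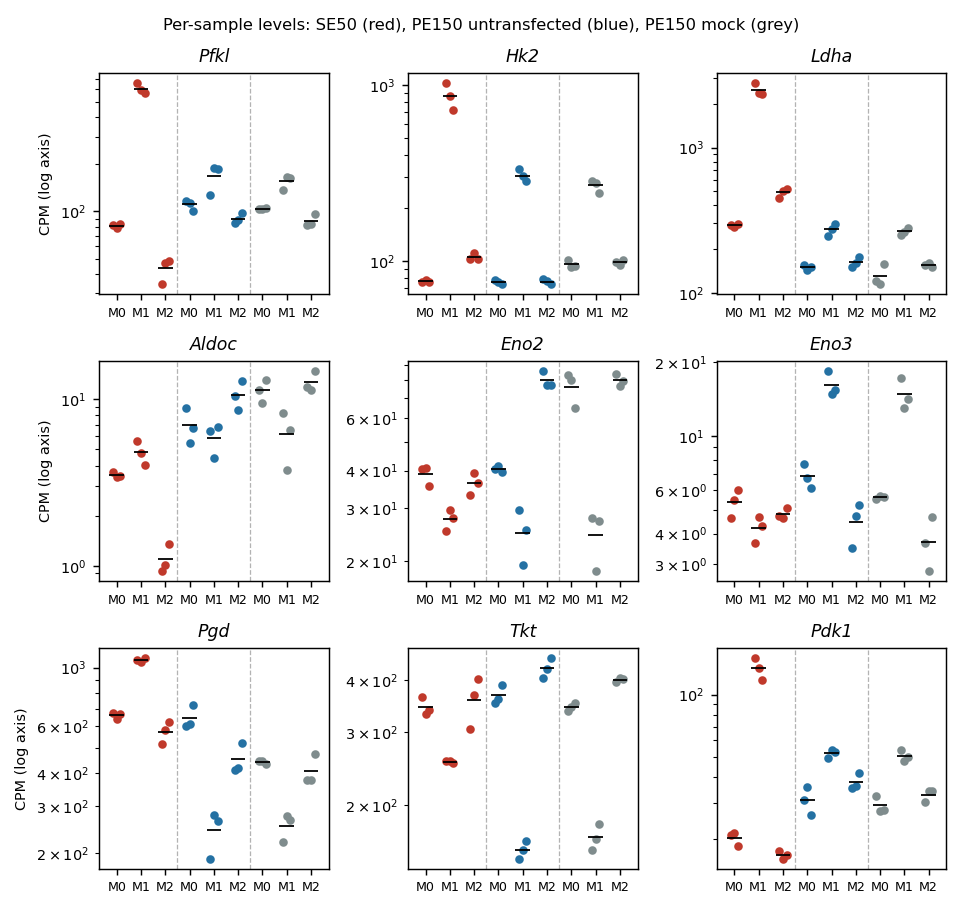
CPM of 9 members on a log axis in the M0, M1-like and M2-like samples of SE50 (red), untransfected PE150 (blue) and mock PE150 (grey), with 1 point per sample and a line at the mean. Hk2 is highest in M1-like samples in each set, Eno3 rises in M1-like samples of PE150 only, and the M1-like samples of Aldoc and Pgd lie above the M2-like samples in SE50 and below them in PE150.

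Pkm makes pyruvate, and the lactate dehydrogenases Ldha and Ldhb interconvert it with lactate, the A form favouring lactate. Pkm, one of the most abundant members, was at 4431, 3919 and 3734 CPM in SE50 M1-like against 766, 838 and 942 CPM in M2-like samples (log2 fold change 2.25, standard error 0.09, adjusted p = 3.56e-10). In untransfected PE150 samples it was at 1416, 1643 and 1714 against 1277, 1393 and 1279 CPM (log2 fold change 0.27, standard error 0.07, adjusted p = 0.000918), and in mock samples at 1389, 1438 and 1528 against 1243, 1320.2 and 1420.4 CPM (log2 fold change 0.13, standard error 0.07, adjusted p = 0.104). The difference was large in SE50, small in untransfected macrophages and not detectable in mock macrophages. Ldha (ENSMUSG00000063229, chr7:46841475-46855627) was at 2777, 2362 and 2354 CPM in SE50 M1-like against 451, 503 and 520.1 CPM in M2-like samples (log2 fold change 2.35, standard error 0.08, adjusted p = 1.38e-10), and rose by 0.75 ± 0.09 and 0.77 ± 0.09 in the PE150 comparisons. Ldhb (ENSMUSG00000030246, chr6:142490249-142507957) was at its lowest in SE50 M1-like macrophages, at 0.567, 0.869 and 0.874 CPM against 9.79, 10.7 and 11 CPM in M2-like samples (log2 fold change -3.75, standard error 0.14, adjusted p = 1.52e-10). PE150 untransfected samples held 10.4, 7.23 and 9.4 against 13.9, 13.9 and 16.1 CPM (log2 fold change -0.69, standard error 0.17, adjusted p = 0.000762). The mock samples held 11.5, 6.24 and 11.4 against 10.6, 10.9 and 13.5 CPM and overlapped (log2 fold change -0.27, standard error 0.17, adjusted p = 0.175). Among the mock and untransfected M1-like samples, the second replicate of each was the lowest.

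In the oxidative branch of the pentose phosphate pathway, G6pdx and Pgd are the steps that yield NADPH. Both were higher in M1-like macrophages in SE50 and lower in PE150. G6pdx stood at 339, 333 and 366 CPM in SE50 M1-like against 215, 209 and 218 CPM in M2-like samples (log2 fold change 0.69, standard error 0.06, adjusted p = 3.9e-07). In untransfected PE150 samples it stood at 131, 163 and 169 against 195, 211 and 224 CPM (log2 fold change -0.45, standard error 0.08, adjusted p = 1.72e-05), and in mock samples at 139, 153 and 153 against 175, 194 and 198 CPM (log2 fold change -0.35, standard error 0.08, adjusted p = 0.000415). The groups did not overlap in any of these comparisons. Pgd stood at 1069, 1049.7 and 1088 CPM in SE50 M1-like against 516, 579 and 626 CPM in M2-like samples (log2 fold change 0.90, standard error 0.07, adjusted p = 2.75e-07). The untransfected PE150 samples held 191, 278 and 265 against 413, 419.7 and 519.6 CPM (log2 fold change -0.88, standard error 0.13, adjusted p = 4.6e-07), and the mock samples 220.5, 276 and 266 against 376, 376 and 473 CPM (log2 fold change -0.68, standard error 0.13, adjusted p = 2.59e-05). Pgd shared 0.64% of its 50-base stretches with other genes and G6pdx 16.9%, with G6pd2 among the genes that share those of G6pdx. Pgls, the lactonase between them, was lower in SE50 (log2 fold change -0.74 ± 0.15) and in untransfected macrophages (-0.39 ± 0.10), and its mock value was 0.02 ± 0.10.

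In the non-oxidative branch, Tkt and Taldo1 transfer carbon units between sugars, and both were lower in M1-like macrophages in all 3 comparisons. Tkt (ENSMUSG00000021957, chr14:30548359-30574720) was at 255, 256 and 252 CPM in SE50 M1-like against 305, 369 and 404 CPM in M2-like samples (log2 fold change -0.50, standard error 0.09, adjusted p = 0.000314). Its untransfected PE150 levels were 149, 156 and 165 against 406, 425 and 453 CPM (log2 fold change -1.45, standard error 0.07, adjusted p = 1e-18), and its mock levels 157, 166 and 180.4 against 395, 405 and 404 CPM (log2 fold change -1.26, standard error 0.07, adjusted p = 4.21e-17). Tkt was unlike most members in that its difference was larger in PE150 than in SE50. Taldo1 was lower in each, with log2 fold changes of -0.57 ± 0.09, -0.61 ± 0.10 and -0.55 ± 0.10. The isomerase Rpia was lower in SE50 only (-0.66 ± 0.08), and the epimerase Rpe was higher in untransfected (0.32 ± 0.07) and mock macrophages (0.34 ± 0.07).

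The subunits of the pyruvate dehydrogenase complex differed by small amounts. Pdha1, the E1 alpha subunit that the kinases phosphorylate, was at 52.9, 56.3 and 52.5 CPM in SE50 M1-like against 71.5, 63 and 65.8 CPM in M2-like samples (log2 fold change -0.31, standard error 0.07, adjusted p = 0.00113). Its untransfected PE150 levels were 67.3, 62.5 and 65 against 56, 57.7 and 59.3 CPM (log2 fold change 0.17, standard error 0.06, adjusted p = 0.00954), and its mock levels 66.4, 62.4 and 65.5 against 54.8, 54.5 and 57.9 CPM (log2 fold change 0.22, standard error 0.06, adjusted p = 0.00132). The PE150 calls of Pdha1 were lost when only the compared groups were fitted (adjusted p = 0.179 and 0.0517) and without the filter on low counts (0.15 and 0.0609). Dlat, the E2 subunit, was at 38, 38.4 and 38.2 against 51.2, 44.1 and 43.7 CPM in SE50 (log2 fold change -0.28, standard error 0.07, adjusted p = 0.00301). In untransfected PE150 samples it was at 53.8, 64.6 and 64.1 against 53.8, 54.9 and 55.9 CPM, with an overlap (log2 fold change 0.15, standard error 0.06, adjusted p = 0.037). This last call was lost under DESeq2 (adjusted p = 0.0893), RLE size factors (0.0744), no filter (0.237), the stricter filter of 10 counts in every sample (0.0552), only the groups compared (0.318) and without M1-like replicate 2 (0.198) or 3 (0.177) or M2-like replicate 1 (0.104) or 2 (0.0761). In mock samples Dlat was at 55.8, 62.6 and 62.1 against 57, 54.7 and 60.3 CPM (log2 fold change 0.07, standard error 0.06, adjusted p = 0.329). Pdhb and Dld, the E1 beta and E3 subunits, had log2 fold changes between -0.11 and 0.10.

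The kinases that inactivate the complex moved more. Pdk1 (ENSMUSG00000006494, chr2:71873224-71903858) was at 151, 134 and 117 CPM in SE50 M1-like against 17.5, 16 and 16.8 CPM in M2-like samples (log2 fold change 3.0, standard error 0.10, adjusted p = 4.65e-11). Untransfected PE150 samples held 49.3, 53.9 and 52.5 against 35.1, 36.2 and 41.7 CPM (log2 fold change 0.46, standard error 0.10, adjusted p = 9.74e-05), and mock samples 53.8, 47.9 and 49.7 against 30.2, 34 and 34 CPM (log2 fold change 0.62, standard error 0.10, adjusted p = 1.33e-06). Pdk1 thus rose in each without overlap. Pdk3 rose as well, by 1.5 ± 0.09, 0.55 ± 0.13 and 0.45 ± 0.12, and Pdk2 fell in each, with -1.07 ± 0.16, -0.53 ± 0.15 and -0.45 ± 0.15 on the log2 scale.

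Isoenzymes of a family were then compared by their share in the family's level, using CPM per kilobase of merged exons (mean ± SD of 3 samples, with no test). Among phosphofructokinases, Pfkl held 60.7% ± 2.8 in SE50 M1-like and 34.7% ± 3.9 in M2-like macrophages, with Pfkp holding most of the rest. Merged exons join all annotated transcripts of a gene and measured 13401 bases for Pfkp and 6675 for Pfkl. In CPM, not divided by length, Pfkp exceeded Pfkl in SE50 M1-like macrophages, at 782 against 606. The lead of Pfkl there thus rests on these lengths. In PE150 the shares of Pfkl were closer, with 52.3% ± 5.1 in untransfected M1-like and 48.1% ± 3.3 in M2-like macrophages. Hk3 held 80.3% or more of the hexokinase level in each condition, and the share of Hk2 was 15.2% ± 2.7 in SE50 M1-like against 8.2% ± 0.81 in M2-like macrophages. Hk3 was thus the leading hexokinase also where Hk2 rose most. In the enolase family, Eno2 held 72.6% ± 4.1 in untransfected M2-like PE150 macrophages and 22.6% ± 3 in M1-like macrophages, where Eno3 held 40.2% ± 2.2. Eno1 held 96.7% ± 0.61 of it in M1-like against 72.9% ± 1.9 in M2-like macrophages of SE50. The enolase shares rest on the uncertain level of Eno1. Ldhb held 0.066% ± 0.02 of lactate dehydrogenase in SE50 M1-like, 4.32% ± 0.06 in M2-like and 9.2% ± 0.41 in M0 macrophages. Among the kinases, Pdk1 went from 22% ± 1.4 in SE50 M2-like to 50.2% ± 1 in M1-like macrophages, and Pdk2 from 19.9% ± 2.1 to 2.72% ± 0.6.

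**Figure D4:**
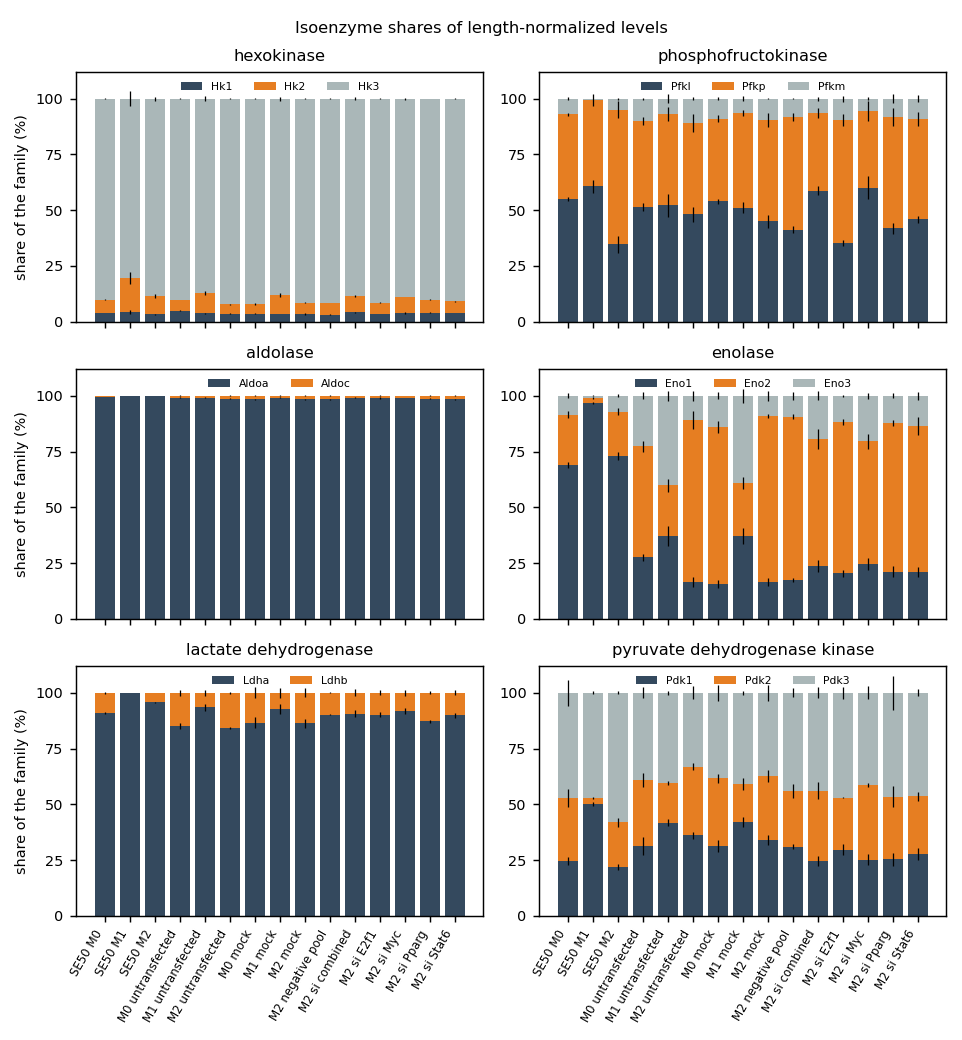
Share of each isoenzyme in the length-normalized level of its family (vertical axis, percent) in the 15 conditions, as stacked means of 3 samples with whiskers for the SD. Hk3 and Aldoa lead their families in every condition, and Eno1 leads the enolases in SE50 but not in PE150. Pfkl and Pfkp trade places between SE50 M1-like and M2-like macrophages on this length-normalized scale, whereas in CPM Pfkp leads in both.

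Across members, levels per length ranked differently between the states. The order of genes within a state depends on the merged exon lengths, which need not be those of the transcripts expressed. In SE50 M1-like macrophages Pkm (805 CPM per kilobase), Aldoa (772), Hk3 (768) and Ldha (755) led. In SE50 M2-like macrophages Aldoa (281 CPM per kilobase), Taldo1 (194), Hk3 (193) and Pkm (169.7) led, so that a pentose phosphate member stood among the first there. In untransfected PE150 M2-like macrophages the leading members were Hk3 (279), Pkm (263), Aldoa (259.6) and Taldo1 (236).

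To test whether the M1-like against M2-like difference itself differed between the experiments, all 45 samples were fitted jointly. It differed between SE50 and untransfected PE150 macrophages for 30 of 34 members, where 51.3% of all 15835 genes did, and between SE50 and mock macrophages for 30 of 34, where 52.9% of all genes did. Both tests share the SE50 samples. The signed difference, SE50 minus PE150, was positive for 21 and negative for 9 of the members called in each. A positive sign does not always stand for a larger change in SE50, since Tkt and Eno2 were lower in M1-like macrophages by more in PE150, and the negative sign of Ldhb came with its larger decrease in SE50. The smallest adjusted p-values against untransfected macrophages were those of Tpi1 (difference of log2 fold changes 2.37, standard error 0.10, adjusted p = 3.4e-21), Pdk1 (2.51, 0.13 and 3.56e-18), Pkm (1.94, 0.10 and 4.26e-18), Pfkl (2.88, 0.16 and 8.5e-18), Pgk1 (1.89, 0.11 and 1.06e-17) and Aldoa (1.75, 0.12 and 6.6e-15). Against mock macrophages they were those of Tpi1 (2.44, 0.10 and 1.03e-21), Pgk1 (2.15, 0.10 and 1.31e-19), Pkm (2.08, 0.10 and 3.55e-19), Pfkl (2.93, 0.16 and 3.22e-18), Pdk1 (2.34, 0.13 and 1.71e-17) and Gpi1 (1.99, 0.13 and 2.82e-16). For Taldo1 no difference was detectable, with 0.01 ± 0.14 against untransfected (95% interval -0.26 to 0.28) and -0.05 ± 0.14 against mock macrophages. Experiment, read length, sequencing site and time of harvest cannot be told apart in these differences. In those against mock macrophages the transfection reagent cannot be told apart from them either. Between mock and untransfected PE150 macrophages the difference was called for 1 member, Hk2 (-0.55, standard error 0.09, adjusted p = 0.000394), where 1.13% of all genes were called, and 6 members had an unadjusted p-value under 0.05.

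Against M0, 22 members were higher and 10 lower in SE50 M1-like macrophages (35.4% and 37.5% of all genes), 18 and 9 in untransfected (29.0% and 28.7%) and 19 and 7 in mock PE150 M1-like macrophages (30.3% and 30.0%). The comparisons with M0 share the M0 samples of their set. In SE50, the largest log2 fold changes of M1-like over M0 macrophages were those of Ldhb (-4.17 ± 0.14, with M0 at 14.8, 13.5 and 13.7 CPM), Hk2 (3.50 ± 0.11, M0 at 76, 77.9 and 75.8 CPM), Pgk1 (3.44 ± 0.08, M0 at 66.5, 61.3 and 67.3 CPM) and Tpi1 (3.32 ± 0.08, M0 at 173, 163 and 164 CPM). None of these M0 groups overlapped with the M1-like samples. In untransfected PE150 macrophages the largest were those of Hk2 (2.01 ± 0.07, M0 at 78.3, 76.1 and 74.1 CPM), Pgd (-1.40 ± 0.13, M0 at 602, 616 and 725 CPM), Eno3 (1.24 ± 0.15, M0 at 7.69, 6.76 and 6.14 CPM) and Tkt (-1.23 ± 0.07, M0 at 352, 361 and 391 CPM). In mock macrophages they were those of Eno2 (-1.64 ± 0.13, M0 at 83.1, 80.1 and 64.6 CPM), Hk2 (1.49 ± 0.07, M0 at 101, 93 and 93.5 CPM), Eno3 (1.40 ± 0.15, M0 at 5.54, 5.69 and 5.62 CPM) and Eno1 (1.16 ± 0.10, M0 at 17.9, 22.2 and 17.8 CPM).

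M2-like macrophages differed less from M0. In SE50, 9 members were higher and 6 lower (13.5% and 14.4% of all genes), with 3 lower without M0 replicate 1. Aldoc fell by 1.66 on the log2 scale from 3.66, 3.41 and 3.44 CPM in M0, Pfkl fell by 0.90 from 81.7, 78.4 and 82.6 CPM, and Pfkm fell by 0.72, from 5.76, 5.05 and 4.65 to 2.92, 2.9 and 3.55 CPM. Ldha rose by 0.75 from 293, 282 and 299.6 CPM. M2-like macrophages thus had more Ldha and less Pfkl than M0 macrophages, with no overlap between the samples. The M0, M1-like and M2-like samples of a number come from 1 mouse, and with the mouse as a replicate block Taldo1 (adjusted p = 0.0491 in place of 0.0791) and Pgd (0.0496 in place of 0.0512) also passed the threshold as lower in M2-like macrophages. In untransfected PE150 macrophages, 4 members were higher and 9 lower (10.7% and 9.19% of all genes). Leaving out 1 sample brought the first number to 2 (without M0 replicate 2 or 3) or 1 (without M2-like replicate 3) and the second to 4 (without M0 or M2-like replicate 1) or 5 (without M2-like replicate 2). Eno2 rose by 0.98 from 40.5, 41.4 and 39.6 CPM, Taldo1 fell by 0.60 from 709, 742 and 877 to 475, 469 and 589.7 CPM and Pgd fell by 0.52. Eno3 fell by 0.61 (adjusted p = 0.00966), with an adjusted p-value of 0.0583 without M0 replicate 1 and 0.0794 without M2-like replicate 1. In mock macrophages 2 members were higher and 1 lower (2.19% and 1.64% of all genes). These were Rpia (0.42 ± 0.10, from 19.3, 18.1 and 19.8 to 25.4, 23.5 and 27.7 CPM), Tkt (0.22 ± 0.06, from 338, 344 and 353 CPM) and Eno3 (-0.60 ± 0.18). None of the 3 calls held in every fit that left out 1 sample. The call of Tkt was lost without any of the 6 samples (adjusted p between 0.0625 and 0.152), that of Eno3 without M0 replicate 1, 2 or 3 or M2-like replicate 1 or 2 (0.078 to 0.28), and that of Rpia without M0 replicate 2 (0.0747) or M2-like replicate 3 (0.0536).

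Mock was then compared with untransfected macrophages in each state, a comparison in which the reagent and the time of harvest cannot be told apart. In M0, 4 members were higher and 8 lower (11.7% and 8.66% of all genes). Eno2 rose from 40.5, 41.4 and 39.6 CPM to 83.1, 80.1 and 64.6 CPM (log2 fold change 0.91, standard error 0.13, adjusted p = 2.89e-06). Taldo1 went from 709, 742 and 877 to 484, 527 and 507 CPM (log2 fold change -0.62, standard error 0.10, adjusted p = 1.31e-05) and Pgd from 602, 616 and 725 to 444, 444 and 433 CPM (log2 fold change -0.56, standard error 0.13, adjusted p = 0.00156). These groups did not overlap. Aldoc went from 8.86, 5.46 and 6.68 to 11.4, 9.46 and 13.1 CPM (log2 fold change 0.70, standard error 0.24, adjusted p = 0.0331), a call that was lost without untransfected replicate 2 (adjusted p = 0.17) or 3 (0.0976) or mock replicate 1 (0.0693) or 3 (0.126). In M1-like macrophages edgeR called 0 members higher or lower, as it called 0% of all genes in each direction, with 3 members at an unadjusted p-value under 0.05 and 0 called by DESeq2. In M2-like macrophages 1 member was higher and 0 lower (1.67% and 0.0988% of all genes), and DESeq2 called 1 member too. This was Hk2, at 98.9, 94.5 and 101 CPM in mock and 78.7, 76.6 and 73.9 CPM in untransfected samples (log2 fold change 0.36, standard error 0.07, adjusted p = 0.000762), and 5 members had an unadjusted p-value under 0.05. The negative siRNA pool against mock gave 0 higher and 3 lower members (6.67% and 5.03% of all genes), with 10 members at an unadjusted p-value under 0.05 and 5 called by DESeq2. The 3 were Pdk1, at 25.8, 23.4 and 27.7 CPM in the negative pool (log2 fold change -0.35, standard error 0.10, adjusted p = 0.0163), Tkt, at 346, 336 and 344 CPM (log2 fold change -0.23, standard error 0.06, adjusted p = 0.015), and Pdha1, at 49.2, 46.8 and 49.1 CPM (log2 fold change -0.21, standard error 0.06, adjusted p = 0.0151). Their number fell to 0 without mock replicate 3 or without negative pool replicate 2, and the call of Pdk1 was also lost without mock replicate 2 (adjusted p = 0.0576).

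Each siRNA pool was compared with the negative pool to ask how the members respond when M2-like macrophages have less of a transcription factor. The target was lowered in each case, with Myc at 38.0% of its level in the negative pool under the Myc pool and 39.6% under the combined pools, Pparg at 21.9% and 28.3%, E2f1 at 25.2% and 60.4%, and Stat6 at 27.3% and 54.0% under its own pool and the combined pools. Pparg was lower under the Myc pool as well, at 65.2% (adjusted p = 6.82e-07). Under the Myc pool 8 members were higher and 11 lower (13.9% and 15.6% of all genes). Under the combined pools 4 were higher and 11 lower (12.5% and 13.9% of all genes). Both comparisons share the negative pool. The methods name Dharmacon as the source of the Myc siRNA and siTools Biotech as that of the other targeting pools. For the negative pool they name no source. The Myc siRNA is part of both comparisons, so that its source and the loss of Myc cannot be told apart. The number of higher members under the Myc pool was 5 without Myc replicate 2 and 4 without Myc replicate 3 or negative pool replicate 2, and that under the combined pools was 2 without combined replicate 1.

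Among the members lower under these pools were 8 of 20 glycolysis, 1 of 7 pentose phosphate and 2 of 7 pyruvate dehydrogenase members with the Myc pool, and 7, 2 and 2 of them with the combined pools, and the pathways were not tested against each other. Aldoc was at 13.3, 10.7 and 14.7 CPM in the negative pool, 6.02, 5.85 and 6.83 CPM under the Myc pool (log2 fold change -1.06, standard error 0.23, adjusted p = 0.000698) and 5.85, 4.29 and 5.53 CPM under the combined pools (log2 fold change -1.31, standard error 0.24, adjusted p = 9.07e-05). Eno2 was at 84.7, 90.8 and 85.4 CPM in the negative pool, 55.8, 49.2 and 45.4 CPM under the Myc pool (log2 fold change -0.79, standard error 0.13, adjusted p = 1.29e-05) and 57.8, 57.4 and 42.4 CPM under the combined pools (log2 fold change -0.73, standard error 0.13, adjusted p = 5.34e-05). The pools and the negative control did not overlap for either gene. Pdk1 was at 15.3, 17.8 and 15 CPM under the Myc pool (log2 fold change -0.68, standard error 0.10, adjusted p = 6.69e-06) and 15.9, 16.6 and 14.3 CPM under the combined pools (log2 fold change -0.72, standard error 0.10, adjusted p = 3.58e-06), below all 25.8, 23.4 and 27.7 CPM of the negative pool. Aldoa, Tkt, Hk3, Pfkp, Pgam1, Ldha and Pdk3 were lower under both, Ldhb under the Myc pool and Pgls under the combined pools. Of the genes with CACGTG in their promoter, Ldha had a log2 fold change of -0.24 ± 0.09 under the Myc pool (adjusted p = 0.0302), Pfkm of -0.32 ± 0.15 (adjusted p = 0.114) and Pdk2 of 0.04 ± 0.15 (adjusted p = 0.863).

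Higher under both pools were Pfkl, Eno3, Pgd and Hk2. Pfkl was at 75.3, 76.2 and 75.3 CPM in the negative pool, 111, 137 and 139 CPM under the Myc pool (log2 fold change 0.77, standard error 0.10, adjusted p = 1.25e-06) and 135, 126 and 123 CPM under the combined pools (log2 fold change 0.76, standard error 0.10, adjusted p = 1.73e-06). Its share among phosphofructokinases was 41.3% ± 1.5 in the negative pool, 60.1% ± 5.1 under the Myc pool and 58.8% ± 1.9 under the combined pools. Eno3 was at 3.19, 4.4 and 4.98 CPM in the negative pool, 6.66, 7.07 and 6.76 CPM under the Myc pool (log2 fold change 0.70, standard error 0.16, adjusted p = 0.00145) and 6.55, 6.68 and 6.63 CPM under the combined pools (log2 fold change 0.66, standard error 0.17, adjusted p = 0.00337). Both genes separated fully from the negative pool. Hk2 rose by 0.18 ± 0.07 and 0.23 ± 0.07 and Pgd by 0.37 ± 0.13 and 0.34 ± 0.13 on the log2 scale. Under the Myc pool Taldo1, Rpia, Pdha1 and Dlat were higher as well, by 0.19 to 0.32. The summed glycolysis level was 0.901 times that of the negative pool under the Myc pool and 0.915 times under the combined pools. The mesothelial and fibroblast markers summed to 193 to 270 CPM under the Myc pool, 201 to 306 CPM under the combined pools and 228 to 330.1 CPM in the negative pool. The macrophage markers summed to 11632 to 11809 CPM under the Myc pool, 11815 to 12796 CPM under the combined pools and 12429 to 13475 CPM in the negative pool, and their part was not tested.

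**Figure D5:**
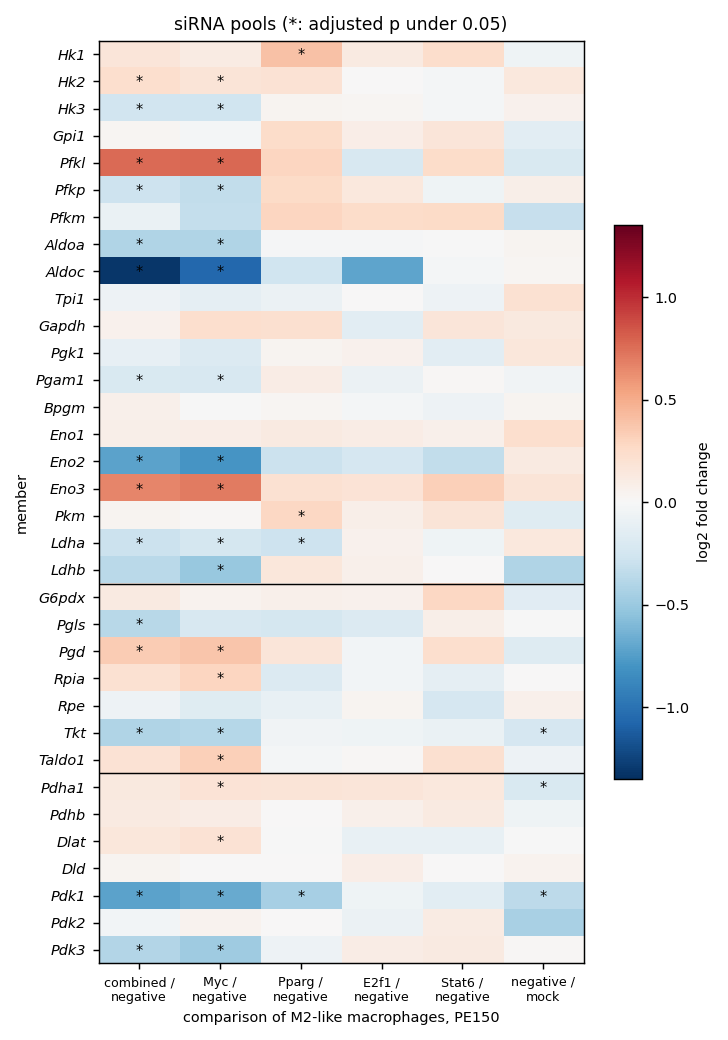
Log2 fold change (colour) of each member (rows) for 5 siRNA pools against the negative pool and for the negative pool against mock in M2-like macrophages (columns), with a star at an adjusted p-value under 0.05. Stars gather in the columns of the combined and Myc pools, which share the negative pool, with Aldoc, Eno2 and Pdk1 lower and Pfkl and Eno3 higher, and the E2f1 and Stat6 columns hold 0 stars.

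The other pools changed few members. The Pparg pool gave 2 higher and 2 lower members (2.71% and 3.03% of all genes). Hk1 was at 116, 117 and 137 CPM against 85.5, 99.5 and 97.3 CPM in the negative pool (log2 fold change 0.39, standard error 0.09, adjusted p = 0.0039) and Pkm at 1382, 1411 and 1521 against 1183, 1203 and 1177 CPM (log2 fold change 0.28, standard error 0.07, adjusted p = 0.0121). Pdk1 was at 17.8, 19.1 and 19.2 CPM (log2 fold change -0.45, standard error 0.10, adjusted p = 0.00537) and Ldha at 141, 135 and 147 against 169, 169.6 and 174 CPM (log2 fold change -0.28, standard error 0.09, adjusted p = 0.0496). The groups did not overlap for these genes, yet each call was lost in some fits. With M2-like mock as the reference the adjusted p-values of Ldha and Pkm were 0.306 and 0.279. The call of Ldha was lost without any of the 6 samples (adjusted p between 0.0938 and 0.164), that of Pkm without Pparg replicate 3 (0.108) or negative pool replicate 1 (0.0514) or 3 (0.0584), that of Hk1 without Pparg replicate 3 (0.0659) or negative pool replicate 1 (0.0502), and that of Pdk1 without negative pool replicate 3 (0.0548). Under the E2f1 pool edgeR called 0 members higher and 0 lower (0.261% and 0.649% of all genes), with 3 members at an unadjusted p-value under 0.05 and 0 called by DESeq2. With the replicate number as a block, edgeR called Aldoc lower (log2 fold change -0.71, adjusted p = 0.00719 in place of 0.166). Under the Stat6 pool it called 0 higher and 0 lower (0.466% and 1.04% of all genes), with 9 members at an unadjusted p-value under 0.05 and 1 called by DESeq2, G6pdx, at 182, 219 and 216 CPM against 161, 172 and 175 CPM in the negative pool. Without Stat6 replicate 1, edgeR called 1 member higher. With the replicate number as a block it called G6pdx higher (adjusted p = 0.015 in place of 0.0752).

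Other genes of the same pathways were followed from 3 further lists, to be read beside the 34.6% of genes higher and 38.1% lower in SE50, 31.3% and 30.2% in untransfected and 30.9% and 29.8% in mock M1-like macrophages. Of 16 genes next to glycolysis, 8 were tested, with 3 higher and 2 lower in SE50 M1-like macrophages and 4 higher and 0 lower in each PE150 comparison. Galm, which prepares glucose for hexokinase, had a log2 fold change of -1.26 ± 0.06 in SE50 and of 0.52 ± 0.07 and 0.60 ± 0.07 in untransfected and mock macrophages. Pgam2, the muscle mutase, rose by 2.27 ± 0.20 in SE50, with -0.21 ± 0.24 and -0.16 ± 0.24 in PE150. Its SE50 levels were low, at 2.43, 2.22 and 1.91 CPM in M1-like against 0.347, 0.583 and 0.399 CPM in M2-like samples. Of 8 genes next to the pentose phosphate pathway, 6 were tested in SE50, with 1 higher and 5 lower, and 5 in PE150, with 3 higher and 0 lower in each comparison. The 1 higher gene was G6pd2, which shares 50-base stretches with G6pdx. It was at 42.6, 41.5 and 45.5 CPM in SE50 M1-like and 28.4, 27.7 and 27.7 CPM in M2-like samples. In PE150 it did not exceed 0.0701 CPM, and the part of reads from G6pdx was not tested. Prps1 and Prps2, which make phosphoribosyl pyrophosphate for nucleotide synthesis, fell by 1.78 and 1.86 in SE50, and their untransfected PE150 values were 0.48 ± 0.14 and 0.28 ± 0.13. Shpk, sedoheptulokinase, had -1.16 ± 0.15 in SE50 and 0.57 ± 0.18 in untransfected macrophages. Of 7 genes next to pyruvate dehydrogenase, 6 were tested, with 1 higher and 2 lower in SE50, 1 higher and 3 lower in untransfected and 1 higher and 2 lower in mock macrophages. The phosphatases Pdp1 and Pdp2, which reactivate the complex, were lower in M1-like macrophages throughout, Pdp1 with -1.24 ± 0.09, -1.04 ± 0.09 and -0.98 ± 0.09 and Pdp2 with -1.24 ± 0.11, -0.78 ± 0.12 and -0.87 ± 0.12 on the log2 scale.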

How the data were processed

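RNA was sequenced from mouse peritoneal macrophages, 18 SE50 libraries (2 technical libraries for each of 3 mice in 3 conditions) and 36 PE150 libraries (12 conditions, 3 replicates). Per the study's methods and the submitters' processing notes, the authors trimmed reads with Trimmomatic, mapped them to GRCm38/mm10 with TopHat2 and counted them per gene with featureCounts. They deposited these read counts as whole numbers without normalization. Strand setting and treatment of multiple matches are not given in the sources used here. Both can move the counts of members with pseudogenes or overlapping neighbours.

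Here, technical libraries were summed, since their chi-square per gene was 1.07 to 1.10 against 3.63 to 52.4 between mice. Genes were filtered with filterByExpr (minimum count 10, minimum total 15), scaled by TMM and tested by the quasi-likelihood method of edgeR (version 4.0.16, R 4.3.3, two-sided, Benjamini-Hochberg over all genes tested) in 1 model per experiment. The difference between experiments came from a joint model of 45 samples. The test was checked on simulated counts with 1 fixed spread and far fewer changed genes than between M1-like and M2-like macrophages. Changes as wide as those were not simulated. CPM is TMM-scaled, and the standard error was obtained from the log2 fold change and its F statistic. Symbols came from GENCODE M21 (37693 identifiers), and shared stretches from its transcripts.

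The members and lists were chosen with earlier results of these data known. Replicate values are given for the 6 members with the largest log2 fold change among those called without overlap in each M1-like against M2-like comparison, the 6 with the smallest adjusted p-value in each test of a difference between them, the 4 with the largest log2 fold change in each other comparison, and members called in opposite directions. The few other replicate values given were chosen after they were seen. Alternatives were DESeq2 1.42.0, scaling by RLE, leaving the low counts in, a stricter filter (10 or more counts everywhere), only the groups compared, separate technical libraries, limma-voom (limma 3.58.1) for the joint model, M2-like mock as the reference, a replicate block and leaving out each sample. Mouse numbers pair the SE50 samples by the labels, and samples of 1 mouse deviated from their condition means with a correlation of -0.01 to 0.48 (median 0.32).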

Additional observations from a re-analysis of the deposited data

Results flagged for a closer look

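The difference between M1-like and M2-like macrophages was not the same in SE50 as in PE150, by the test of the difference in the joint edgeR model, for 30 members with untransfected and 30 members with mock macrophages. Both tests share the SE50 samples. Values are differences of log2 fold changes, SE50 minus PE150. With untransfected macrophages they were 2.37 for Tpi1, 2.51 for Pdk1, 1.94 for Pkm, 2.88 for Pfkl, 1.89 for Pgk1, 1.75 for Aldoa, 1.11 for G6pdx, 1.75 for Pgd, 2.93 for Aldoc, -1.10 for Bpgm, -0.51 for Pdha1 and -0.45 for Dlat. With mock macrophages they were 2.44 for Tpi1, 2.15 for Pgk1, 2.08 for Pkm, 2.93 for Pfkl, 2.34 for Pdk1, 1.99 for Gpi1, 1.70 for Aldoa, 1.01 for G6pdx, 3.12 for Aldoc, 1.55 for Pgd, -0.56 for Pdha1, -1.07 for Bpgm and -0.38 for Dlat. Aldoa, Aldoc, G6pdx and Pgd are of note because they were called higher in M1-like macrophages of SE50 and lower in those of PE150. Pgk1 shares 53.9% of its 50-base stretches with pseudogenes and Aldoc none, and the part of shared sequence in the differences was not tested.

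Between mock and untransfected PE150 macrophages, the difference was called for 1 member, Hk2, with -0.55 (adjusted p = 0.000394). Mock samples had more Hk2 in M2-like macrophages (adjusted p = 0.000762), whereas in M1-like macrophages the change was -0.18 ± 0.06 on the log2 scale and was not called.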

How the results depend on the processing

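Of 254 numbers of called members under alternatives other than leaving out 1 sample, 235 stayed within 1.5 times the number reported and 19 did not. The cause was not tested. DESeq2 called 1 member higher in place of 0 under the Stat6 pool and in the negative pool against mock, and the latter also became 1 under the stricter filter. Without a filter, the Stat6 and E2f1 pools each had 1 lower member in place of 0 and the Myc pool 5 higher in place of 8. With only the groups compared, mock M2-like against M0 had 0 higher and 0 lower in place of 2 and 1, and the E2f1 and Stat6 pools 1 lower each in place of 0. With M2-like mock as the reference, the E2f1 pool had 2 higher and 5 lower, the Pparg pool 4 higher and the Stat6 pool 2 lower. More of all 14172 genes were called with this reference as well. For the E2f1 pool 894 were higher and 754 lower, in place of 37 and 92 against the negative pool. The Pparg pool had 1359 higher in place of 384, and the Stat6 pool 755 lower in place of 148. PE150 replicates share only a number (134 of 198 pairs correlated above 0.1, and 34 of 36 samples correlated best with their own number). With the replicate block, mock M2-like against M0 had 4 higher members, the negative pool 1 higher, the E2f1 pool 1 lower (Aldoc, adjusted p = 0.00719), the Pparg pool 4 higher and the Stat6 pool 1 higher (G6pdx, 0.015), and no call of a member named with its replicates was lost. Leaving out 1 sample, the numbers ranged from 3 to 7 (SE50 M2-like against M0, lower), 1 to 4 and 4 to 9 (untransfected, higher and lower), 0 to 3 and 0 to 2 (mock, higher and lower), 0 to 4 (negative pool, lower), 2 to 3 (combined pools, higher), 4 to 6 (Myc pool, higher), 0 to 2 and 0 to 1 (Pparg pool, higher and lower) and 0 to 1 (Stat6 pool, higher). The 3 comparisons of M1-like with M2-like macrophages had 17 to 20 higher and 6 to 10 lower members. Of 1263 values of named members under all alternatives, 1202 kept their direction and their side of the threshold, 61 fell short of it and 0 reversed. Depth limits members at a few CPM, such as Aldoc and Ldhb.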
